A study of Danio rerio with 6 samples.

Results

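The genes described here carry and restrain Fgf signalling in the zebrafish embryo: the ligands fgf8a and fgf3, the receptors fgfr1a and fgfr4, the feedback inhibitors spry2, spry4, dusp6 and il17rd, and the ETS transcription factors etv4 and etv5b. They were taken by their symbols, and each probe set to which the array's platform annotation gives that single symbol was used. All 10 genes were measured, by 13 of the 15502 probe sets tested, among 8793 named genes. RNA came from whole AB embryos raised at 28.5 °C to 12 h after fertilisation, when they have 6 somites, and each sample was hybridised to its own Affymetrix array. There were 3 control samples and 3 samples of Ovo1 morphants, embryos injected with an antisense morpholino against the zinc finger factor Ovo1. The morphants are labelled as carrying the sox10(7.2):gfp reporter, while the controls are labelled wild type, and the design text gives the reporter to both. The labels do not say whether the controls received any injection, so an effect of injection and an effect of the Ovo1 morpholino cannot be told apart. The labels name neither separate clutches nor the number of pooled embryos, so p-values reflect only how far these samples differ among themselves, which may be technical variation.

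Fgf ligands are secreted proteins that bind receptor tyrosine kinases together with heparan sulphate chains on the cell surface. Active receptors switch on Ras and the Raf, Mek and Erk kinases, and Erk acts in the nucleus through ETS factors of the Pea3 group. The same signal switches on its own inhibitors, so the transcripts of Sprouty, Dusp6, Sef (il17rd) and Pea3 genes are widely used as a readout of where Fgf is active. In the early zebrafish embryo Fgf8 and Fgf3 pattern the midbrain-hindbrain boundary, the hindbrain and the ear placode, and Fgf8 also acts in the tailbud, somites and heart field.

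The Sprouty gene spry2 was the only member gene with a probe set past the test, and it was higher in morphants. Of the 13 probe sets 1 was higher and 0 were lower (limma, Benjamini-Hochberg adjusted p under 0.05 over all probe sets), against 5.72% of all probe sets in either direction (2.59% higher and 3.12% lower). With the replicate number as a block, which compares same-numbered arrays, 2 were higher and 0 lower, both of them spry2, against 18.6% of all probe sets (8.82% higher and 9.83% lower). At an unadjusted p under 0.05 there were 3, against 21.3%, and the groups did not overlap in 3, against 26.0%. These shares of the members (7.69%, 15.4%, 23.1% and 23.1%) lie near those of all probe sets, so the number of calls says nothing particular about the members as a group. Their median log2 change was 0.08, with that of all probe sets at -0.0014. The brightest spry2 probe set did not pass without the block, so counting each gene by its brightest probe set gives 0 of 10 genes.

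Levels below are normalised intensities, which are the deposited intensities after quantile normalization between arrays. Differences and folds are on the scale of log2(intensity + 16), which shrinks those of dim probe sets, and 95% intervals are those of limma, not adjusted for the number of probe sets. On this scale the 25th percentile of an array lay near 36.2, the median near 142.9 and the 75th percentile near 500.1. Levels of different probe sets cannot be ranked against each other, because probes differ in brightness. In whole-embryo RNA fewer cells of a type and less RNA per cell cannot be told apart. The 6 arrays formed 2 groups on the first principal component (48.3% of the variance), and both arrays numbered 1 lay apart on the second (29.6%). Of 25 measured markers of embryonic tissues 24 lay above the 25th percentile and none was at 0. The exception was the heart gene nkx2.5. The summed intensity of these markers ran from 48639 to 51742 over the controls and from 47639 to 52479 over the morphants. Most of it came from krt4, apoeb, krt5 and apoa2 (means 12638, 9058, 7019 and 5911). The sum therefore says little about dimmer markers such as crestin (481). Of the 25 markers, counted by the brightest probe set of each gene, 1 was higher and 4 lower, against 6.80% of named genes. The neural genes sox2 (-0.41 on the log2 scale) and sox19a (-0.27), the epidermal gene tp63 (-0.48) and the neural crest gene crestin (-1.23) were lower, and the midline signal shhb (0.65) was higher. Other markers of these tissues passed in neither fit: neural sox3 (-0.05) and elavl3 (-0.44), epidermal krt4 (0.05) and krt5 (0.03), and midline shha (0.25), tbxta (-0.02) and col2a1a (0.53). Dimmer probe sets of tp63 (-0.17) and sox2 (-0.36 and -0.03) were not called without the block. With it, the sox2 probe set at -0.36 was called (limma adjusted p = 0.0173), and the others were not (0.289 for tp63 and 0.910 for sox2). With the replicate block 3 of the 25 markers were higher and 7 lower, against 21.3% of named genes. The added ones were foxa3 and foxa2 upward and myf5, foxd3 and sox10 downward (limma adjusted p = 0.00774, 0.0410, 0.0251, 0.0264 and 0.0479). The other muscle precursor marker, myod1, stood on the opposite side of 0 from myf5 (0.24 against -0.32). It passed in neither fit (limma adjusted p = 0.498, and 0.154 with the block). The calls of sox2, sox19a and tp63 without the block were kept only when Ovo1 morphant replicate 1 was the array left out (adjusted p otherwise reaching 0.197, 0.196 and 0.119). That of crestin was lost without control replicate 1 or 3 or Ovo1 morphant replicate 2 (reaching 0.105), and that of shhb without control replicate 3 or Ovo1 morphant replicate 2 (reaching 0.0811). The part of these markers in the Fgf values was not tested.

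**Figure D1:**
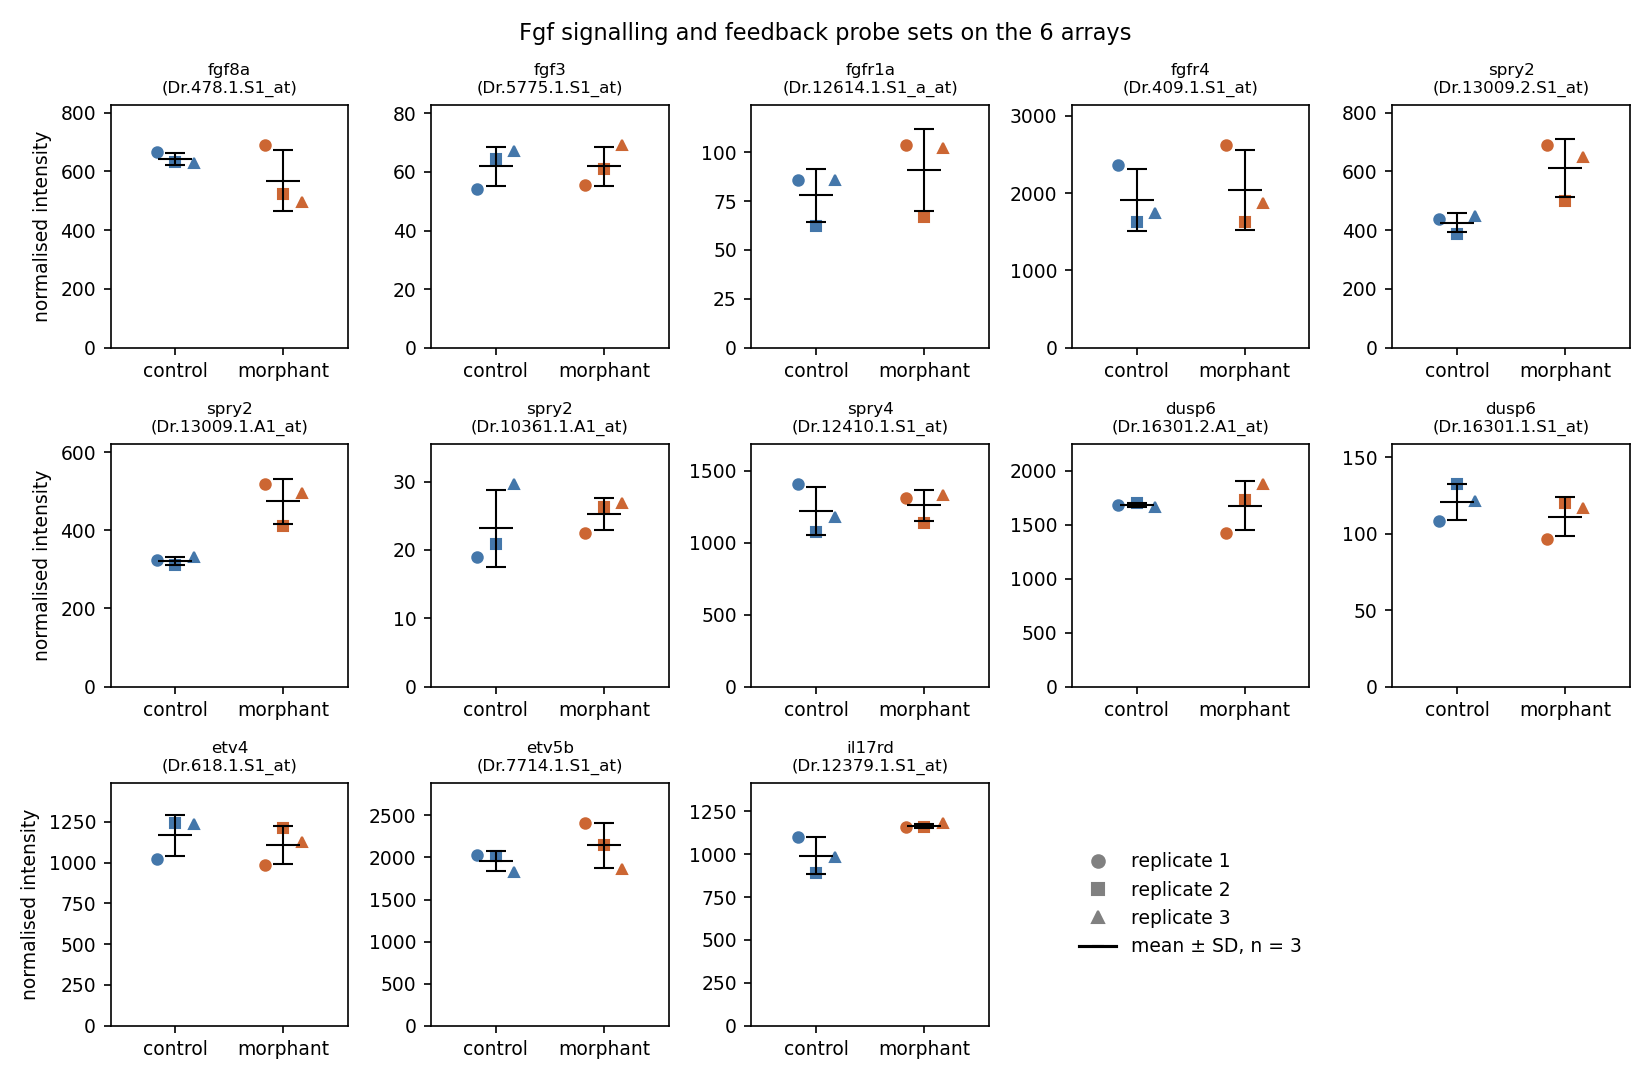
Normalised intensity (vertical axes, linear and starting at 0) of each Fgf probe set on the control and Ovo1 morphant arrays, with a symbol for each replicate number and the mean ± SD (n = 3) in black. The morphants lie above the controls in the brighter spry2 probe sets and in il17rd, and the groups overlap in the other panels.

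The ligand fgf8a, the main Fgf of the midbrain-hindbrain boundary, read 666.2, 632.9 and 629.4 in the controls and 688.9, 522.4 and 495.6 in the morphants, both in the order of the replicate numbers, as in all readings that follow. Morphant 1 was the highest of the 6 arrays and morphants 2 and 3 the lowest, so the groups overlapped. The means were 642.8 ± 20.3 in controls and 569.0 ± 105 in morphants (SD, n = 3). The log2 difference, morphant minus control, was -0.19 ± 0.13 (SE), and it did not pass the test (limma adjusted p = 0.490, and 0.220 with the replicate block). Its 95% interval, from -0.49 to 0.11, leaves room for a fold between 0.714 and 1.08 on that scale. Between same-numbered arrays the log2 difference of fgf8a was 0.05, -0.27 and -0.34. The limma adjusted p of fgf8a ran from 0.0683 to 0.804 when each array was left out in turn. The lowest came without Ovo1 morphant replicate 1 (log2 difference -0.33) and the highest without Ovo1 morphant replicate 3 (-0.097). The ligand fgf3, which acts with fgf8a in the hindbrain and in ear induction, was dimmer, reading 54.3, 64.4 and 67.1 in controls and 55.7, 60.9 and 69.1 in morphants. Its groups overlapped fully and its log2 difference was -0.00078 ± 0.13, with an interval from -0.29 to 0.29 (adjusted p = 0.998). The fgf3 probe set stood at the 33.8th percentile of mean brightness.

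The receptor fgfr4 read 2361, 1623 and 1746 in controls and 2618, 1626 and 1877 in morphants. Both arrays numbered 1 were the brightest of their group, and the groups overlapped. The difference was 0.08 ± 0.19 on the log2 scale, the widest error of the 13 probe sets. Between same-numbered arrays fgfr4 differed by 0.15, 0.0026 and 0.10, and the replicate block reduced its SE to 0.06 without a call (adjusted p = 0.868, and 0.386 with the block). The receptor fgfr1a read 85.9, 62.4 and 85.7 in controls and 103.5, 66.6 and 102.4 in morphants. The arrays numbered 2 were the dimmest of each group and the groups overlapped. The difference in fgfr1a was 0.18 ± 0.18 (adjusted p = 0.666, and 0.271 with the block). Its interval ran from -0.24 to 0.59, the widest reach upward among the genes other than spry2, so a level up to 1.50 times that of controls lies inside it. Both receptors were higher in morphants in 3 of 3 same-numbered pairs, and neither difference passed the test.

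The feedback inhibitor spry2 encodes a Sprouty protein, which damps Ras and Erk signalling inside the cell, and it has 3 probe sets. The first, Dr.13009.1.A1_at, read 324.1, 311.2 and 331.1 in controls and 517.5, 409.7 and 494.3 in morphants. The highest control lay below the lowest morphant, with morphant 2 nearest to the controls. The means were 322.1 ± 10.1 and 473.8 ± 56.7 (SD, n = 3), a 1.44-fold difference, or 0.53 ± 0.12 on the log2 scale with an interval from 0.26 to 0.80 (limma adjusted p = 0.0390). The second and brightest, Dr.13009.2.S1_at, read 438.5, 388.1 and 447.8 in controls and 688.2, 500.5 and 647.5 in morphants. Again the groups did not overlap and morphant 2 was the lowest morphant. Its difference was 1.42-fold, or 0.50 ± 0.14 on the log2 scale, and it missed the threshold (adjusted p = 0.0725) except with the replicate block (0.00625, against 0.00579 for the first probe set). In same-numbered pairs the log2 difference was 0.65, 0.38 and 0.56 for the first and 0.63, 0.35 and 0.52 for the second. Both probe sets therefore ranked the pairs alike, the pair numbered 2 having the smallest difference. The third, Dr.10361.1.A1_at, lay near the floor, with readings of 18.9, 20.9 and 29.6 in controls and 22.5, 26.3 and 26.8 in morphants. Its groups overlapped (0.08 ± 0.13, adjusted p = 0.795), at the 17.7th percentile of mean brightness.

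With an array left out, the size of the spry2 difference was steadier than its call. Without each array in turn the first probe set stayed between 0.47 and 0.62, and the second between 0.41 and 0.63, on the log2 scale. The first kept its call only without Ovo1 morphant replicate 1 (limma adjusted p = 0.0413). It lost the call without control replicate 1, 2 or 3 (adjusted p = 0.0895, 0.139 and 0.141) and without Ovo1 morphant replicate 2 or 3 (0.0556 and 0.121). Without both arrays numbered 1, a choice made after seeing the data, it was 0.47 with an adjusted p of 0.0482. The second had an adjusted p between 0.0558 and 0.223 with an array left out. With array weights the difference was smaller, at 0.39 in the first and 0.31 in the second (limma adjusted p = 0.0208 and 0.0892).

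**Figure D2:**
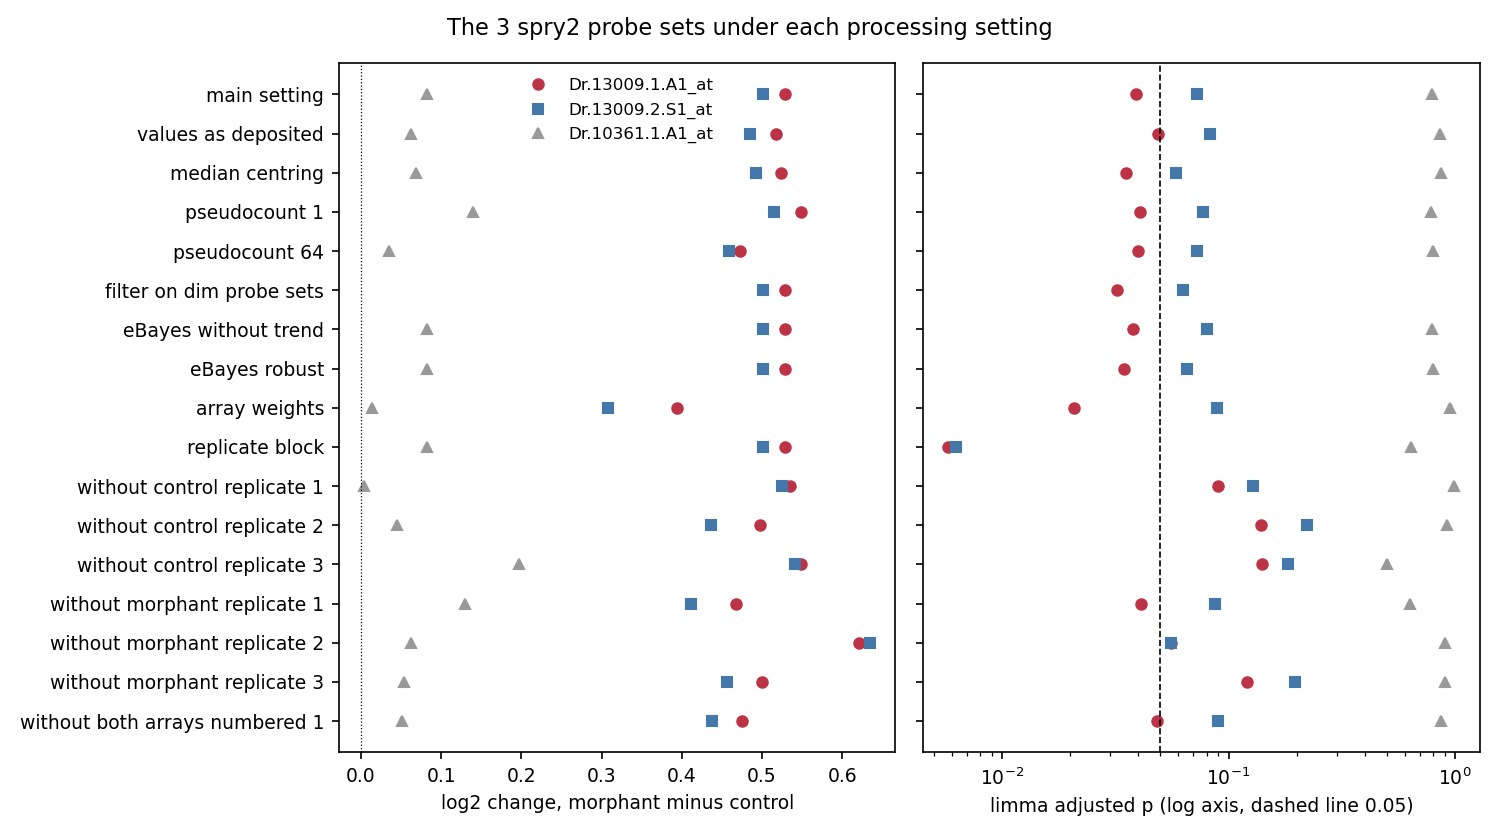
Log2 change of the 3 spry2 probe sets (left, horizontal axis) and their limma adjusted p (right, log axis, dashed line at 0.05) under each processing setting, 1 row per setting. The brighter pair of probe sets stays between 0.31 and 0.63 in each setting drawn, the adjusted p crosses 0.05 when arrays are left out, and the dim probe set is absent from the row with the filter on dim probe sets.

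The second Sprouty gene, spry4, read 1406, 1077 and 1180 in controls and 1314, 1134 and 1332 in morphants. The groups overlapped, control 1 being the highest array. The difference in spry4 was 0.05 ± 0.12 (adjusted p = 0.875), and the interval, from -0.21 to 0.31, holds folds up to 1.24. The phosphatase gene dusp6, whose product removes the activating phosphates of Erk, has 2 probe sets. The brighter, Dr.16301.2.A1_at, read 1680, 1700 and 1666 in controls and 1425, 1729 and 1872 in morphants. The controls of dusp6 lay close together (SD 16.9) while the morphants spread on both sides of them (SD 228). Its difference was -0.015 ± 0.10 (adjusted p = 0.965). The dimmer, Dr.16301.1.S1_at, read 108.6, 132.4 and 121.7 in controls and 96.4, 119.9 and 117.1 in morphants, with overlapping groups and a difference of -0.11 ± 0.13 (adjusted p = 0.727).

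The gene il17rd encodes Sef, a membrane protein that inhibits signalling from Fgf receptors. It read 1103, 890.6 and 983.3 in controls and 1160, 1158 and 1180 in morphants. All 3 morphants lay above all 3 controls and close together, with an SD of 12.6 against 107 in controls. The difference was 1.18-fold, or 0.23 ± 0.097 on the log2 scale. It did not pass the test (limma adjusted p = 0.208, and 0.0728 with the replicate block), although its unadjusted p was 0.0399. The log2 differences between same-numbered arrays were 0.07, 0.37 and 0.26. When each array was left out in turn the il17rd difference stayed between 0.16 and 0.32 and was not called.

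The ETS factor etv4 is the zebrafish pea3 gene, switched on by Fgf and active in its target genes. It read 1022, 1241 and 1240 in controls and 985.9, 1216 and 1124 in morphants. The arrays numbered 1 were the lowest of each group and the groups overlapped, with a difference of -0.07 ± 0.11 (adjusted p = 0.800). Morphants were lower in 3 of 3 same-numbered pairs, by at most 0.14 on the log2 scale. Its relative etv5b, known as erm, read 2031, 2021 and 1825 in controls and 2406, 2153 and 1869 in morphants. Here the arrays numbered 3 were the lowest of each group and the groups overlapped. The difference in etv5b was 0.12 ± 0.10 (adjusted p = 0.562), and morphants were higher in 3 of 3 pairs. The 2 ETS genes thus stood on opposite sides of 0, and neither passed the test in either fit.

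**Figure D3:**
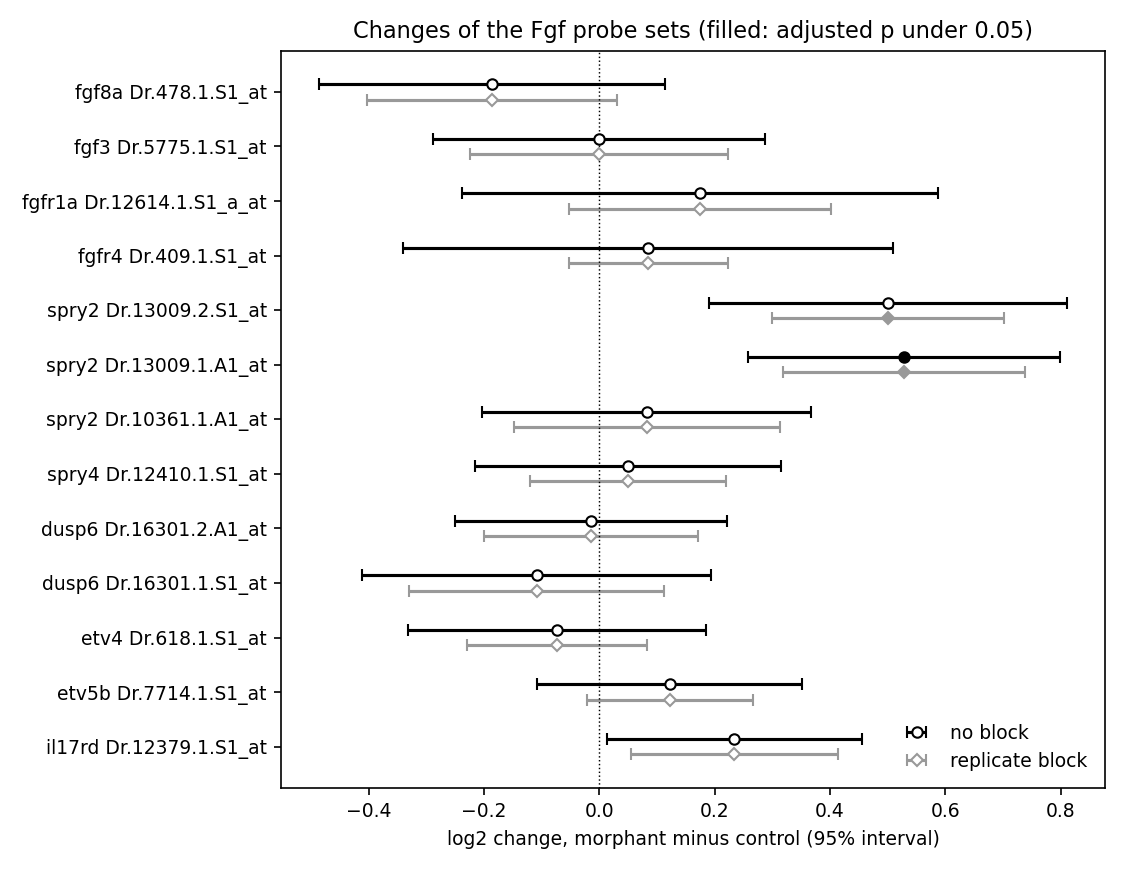
Log2 change of each Fgf probe set, morphant minus control (horizontal axis), with its 95% interval without (black circles) and with (grey diamonds) the replicate block, and filled symbols where the adjusted p is under 0.05. The filled symbols belong to spry2, and the points of the other genes lie between -0.19 and 0.23.

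Across the 10 probe sets of the 9 genes other than spry2, the log2 differences ran from -0.19 in fgf8a to 0.23 in il17rd, with standard errors between 0.097 and 0.19. Adjusted p-values ran from 0.208 to 0.998, and the lowest with the replicate block was 0.0728. Among the 95% intervals of these probe sets the lowest limit was a fold of 0.714, in fgf8a, and the highest 1.50, in fgfr1a. Single intervals were narrower, at 0.714 to 1.08 in fgf8a and 0.848 to 1.50 in fgfr1a. They ran from 0.841 to 1.17 in the brighter dusp6 probe set and from 1.01 to 1.37 in il17rd. With 3 arrays a group, changes within its own interval are not excluded for each probe set. These intervals are not adjusted for the number of probe sets. The difference of spry2 from the other readouts of Fgf activity was examined within arrays, a comparison chosen after the values were seen. The log2 change of the first spry2 probe set exceeded that of spry4 by 0.48, of dusp6 by 0.54, of etv4 by 0.60, of etv5b by 0.41 and of il17rd by 0.29. In each of these 5 comparisons the within-array difference did not overlap between the groups. The first probe set was the only spry2 probe set called without the block, while each other gene was taken by its brightest. The lack of overlap therefore does not show a difference particular to spry2. The two-sided exact permutation p was 0.1 in each, also after Benjamini-Hochberg adjustment over the 5. As 0.1 is the smallest that 3 against 3 arrays allow, the test cannot decide the question, and no conclusion is drawn from it.

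Further genes of the pathway were counted by the brightest probe set of each gene, beside 6.80% of named genes called (3.23% higher and 3.57% lower) and a median of 0.0070 over named genes. With the replicate block 21.3% of named genes were called (10.7% higher and 10.6% lower), and the blocked counts of each list are to be read against these shares. Of 10 other ligands and ligand-binding proteins 0 passed in limma, where 1 had an unadjusted p under 0.05, and 1 was higher with the replicate block. That gene was fgf2, which read 25.7, 30.9 and 21.9 in controls and 35.0, 46.1 and 38.9 in morphants. Its groups did not overlap at this low brightness (0.41 ± 0.13, adjusted p = 0.104, and 0.0233 once blocked). The list had a median of -0.0088, and 6 of the 10 had a mean below the average 25th percentile of the arrays. The genes with the next smallest p-values were fgfbp1a, a ligand carrier (-0.24 ± 0.13, adjusted p = 0.341), fgf4 (-0.17 ± 0.12, 0.520) and fgf6a (0.12 ± 0.11, 0.608).

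Among 21 other receptors and genes of heparan sulphate, 1 was higher and 0 lower, with a median of 0.14, and the block gave 3 higher and 0 lower, or 14.3% against 21.3% of named genes. The called gene was sdc4, a cell surface heparan sulphate proteoglycan. It read 2226, 2047 and 2097 in controls and 3008, 2883 and 2905 in morphants, with no overlap and a difference of 0.46 ± 0.07 (adjusted p = 0.00543). A second sdc4 probe set was called as well (0.30 ± 0.07, adjusted p = 0.0409). The glypican gpc4 read 402.4, 313.2 and 383.6 in controls and 761.1, 440.7 and 569.1 in morphants (0.64 ± 0.19, adjusted p = 0.0935, and 0.00391 with the block). Morphant 1 was the highest and the groups did not overlap. The heparan sulphate polymerase gene ext1c (0.50 ± 0.18) likewise passed with the block alone (0.0105, against 0.160), and ext1a (0.31 ± 0.13) passed in neither fit (0.201, and 0.0979 with the block). The remaining Fgf receptors fgfr2 (-0.08 ± 0.14) and fgfr3 (0.20 ± 0.18) did not pass, and they are named for completeness after their values were seen.

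In the Ras and Erk relay 2 of 22 genes were higher and 0 lower, with a median of -0.00087, and the block gave 4 higher and 1 lower, or 22.7% against 21.3% of named genes. The called genes encode kinases that Erk activates. The Rsk gene rps6ka3a read 275.4, 289.4 and 339.5 in controls and 681.3, 602.3 and 827.2 in morphants, a separation of 1.17 ± 0.14 on the log2 scale (adjusted p = 0.00252). The gene mknk2b, whose product phosphorylates a translation initiation factor, read 685.0, 477.9 and 564.8 in controls and 1082, 1173 and 1017 in morphants. All 3 mknk2b probe sets were higher without overlap, by 0.83 to 0.99 (adjusted p at most 0.00901). In the kinase chain itself the Mek gene map2k2a (0.38 ± 0.11, adjusted p = 0.0831, and 0.0117 with the block) and the scaffold ksr1b (0.41 ± 0.15, 0.152 and 0.0360) passed upward with the block alone. The Erk1 gene mapk3 passed downward with the block alone in its brightest probe set (-0.28 ± 0.08, adjusted p = 0.0886 and 0.0253), while its other probe sets stood at -0.29 and -0.06 and passed in neither fit.

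Of 20 other genes known to respond to Fgf or to restrain Erk, 2 were higher and 0 lower, with a median of -0.08, and the block gave 2 higher and 1 lower (15% against 21.3%). Both called genes are AP-1 factors, which also respond to stress and other signals. In the same list egr1 (-0.06), ier2a (-0.07), dusp1 (0.04) and dusp5 (-0.02) passed in neither fit, and they are named after their values were seen. In fosab the controls read 51.8, 54.8 and 47.9 and the morphants 772.3, 698.3 and 423.3. This was a difference of 3.22 ± 0.21 (adjusted p = 6.81e-05), with morphant 3 the lowest of the morphants. In fosl2 the controls read 144.6, 117.0 and 124.7 and the morphants 180.4, 195.4 and 197.4 (0.52 ± 0.12, adjusted p = 0.0460). The calls of sdc4, rps6ka3a, mknk2b and fosab stayed without each array in turn, and that of fosl2 was lost when any of 5 arrays was left out (adjusted p reaching 0.187). The phosphatase dusp22a was lower with the block alone (-0.44 ± 0.14, adjusted p = 0.108 and 0.0216). Closer relatives of the member genes were not called in either fit. Of these, etv5a stood at -0.21 ± 0.09 (adjusted p = 0.236) by its brightest probe set, in which the groups did not overlap. A dimmer etv5a probe set stood at -0.13 ± 0.17 (0.758), with overlapping groups. The phosphatases dusp4 and dusp7 stood on opposite sides of 0, at -0.21 ± 0.13 (0.428) and 0.19 ± 0.12 (0.425). The Sprouty-related inhibitor spred1 stood at -0.11 ± 0.12 (0.694). All of these but etv5a are named after their values were seen. The tailbud target tbxta (-0.02 ± 0.08), the presomitic gene tbx6 (-0.18 ± 0.14) and the hindbrain target egr2b (-0.0042 ± 0.094) had overlapping groups.

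**Figure D4:**
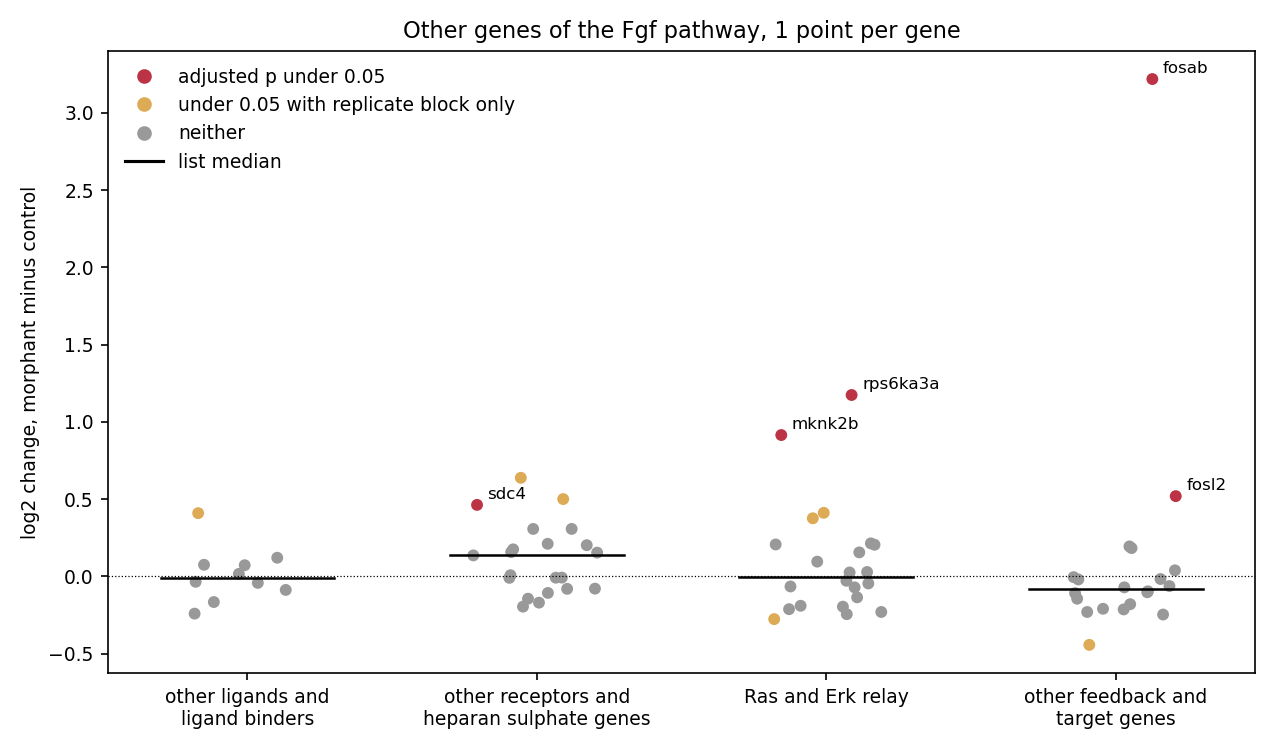
Log2 change, morphant minus control (vertical axis), of other Fgf pathway genes by list, 1 point per gene at its brightest probe set, spread sideways for legibility, with the list median as a line. The 5 genes past the test are named and all lie above 0, and list medians lie between -0.08 and 0.14. From left to right the lists had 0%, 4.76%, 9.09% and 10% of their genes called, against 6.80% of named genes. These counts therefore say nothing particular about the pathway.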

How the data were processed

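The deposited file holds a linear PLIER intensity for every probe set on each array, which per the submitters' processing notes the authors computed in Affymetrix Expression Console 1.1. The sources used here do not give its background and normalization settings. Of 15617 probe sets, 115 Affymetrix controls were left out. Array medians differed by up to 0.19 on the log2 scale, and log2(intensity + 16) was quantile normalized between arrays. Printed levels are these values back on the linear scale less 16. Symbols came from the platform annotation, updated by gene identifier: 10795 probe sets had 1 symbol, 135 several and 4572 none. A gene with several probe sets was counted by the brightest in the further lists, while every probe set of the 10 Fgf genes was kept. No pair of arrays shared more than 0.0839% of equal values.

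Morphants were set against controls in limma 3.58.1 under R 4.3.3, using lmFit and trended eBayes, and p-values were adjusted by Benjamini-Hochberg over 15502 probe sets at a threshold of 0.05. The pipeline was tested on simulated data with noise independent between arrays. That test therefore does not cover the correlation between same-numbered arrays given next. Groups share replicate numbers in the titles. The deviations of same-numbered arrays from their group means correlated at 0.58, 0.46 and 0.54 across probe sets. All lay above 0.1, which had been preset to mean that the numbers pair the samples. Those of differently numbered arrays correlated between -0.50 and 0.105. The main fit still had no block, because the labels name no pairing, and some calls depend on this choice. A fit with the replicate number as a block, which treats same-numbered arrays as pairs, was run beside it. Values with this block stand beside results whose call they change among the members and in the lists. Other settings tried were no normalization between arrays, centring on medians, a pseudocount of 1 or 64, a filter on probe sets below the 25th percentile, eBayes without trend or robust, array weights, averaged probe sets per gene for list medians, and leaving out each array. The members and gene lists were chosen with earlier results of these data known. Named in each further list were genes past the threshold with or without the block, up to 4 with the smallest p, and a fixed set of domain markers, of which mafba was not analysed here. No sequences of probes or genes were used. Figures were drawn with matplotlib 3.10.9.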

Additional observations from a re-analysis of the deposited data

How the results depend on the processing

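The call of the first spry2 probe set held in each alternative with all 6 arrays, and that of the second came with the replicate block (0.50), which changed no other call among the members. The number of member probe sets higher was 2 with the block and 2 with array weights, and 0 to 1 with an array left out. With array weights il17rd was called (0.24), and signs turned in fgfr1a (-0.079), fgfr4 (-0.060), spry4 (-0.011), the brighter dusp6 probe set (0.044), egr2b (0.052) and tbxta (0.035). Without both arrays numbered 1 they turned in the brighter dusp6 probe set (0.097), egr2b (0.034) and the brighter pax2a probe set (0.039). With each array left out in turn the log2 change ran from -0.10 to 0.097 in that dusp6 probe set, -0.17 to 0.0066 in etv4, -0.072 to 0.058 in fgf3, -0.11 to 0.24 in fgfr4, -0.033 to 0.15 in spry4, 0.47 to 0.62 in the first spry2 probe set, -0.041 to 0.059 in egr2b, -0.14 to 0.063 in msgn1, -0.062 to 0.17 in nkx2.5, -0.15 to 0.029 in pax2a and -0.054 to 0.0088 in tbxta. Among the genes whose ranges are given, spry2 alone passed the test in any of the fits without an array. The cause of the sign changes was not tested. Over all probe sets 402 were higher and 484 lower. These counts were 1367 and 1524 with the block, 1519 and 1607 with array weights, 838 and 911 without both arrays numbered 1, and between 146 and 830 and between 123 and 883 with an array left out. Other ligands higher numbered 1 with the block or array weights. Receptors and heparan sulphate genes higher numbered 3 with the block, array weights or without both arrays numbered 1, and 1 to 2 with an array left out. Relay genes higher numbered 4 in those 3 settings and 2 to 4 with an array left out, and those lower numbered 1 with the block and 2 with array weights. The relay median lay between -0.027 and 0.057 with an array left out. Feedback and target genes higher numbered 1 with the values as deposited, median centring or a pseudocount of 64, and 1 to 2 with an array left out. Those lower numbered 1 with the block or without both arrays numbered 1, 2 with array weights and 0 to 1 with an array left out, and the median was -0.030 without both arrays numbered 1. The number of arrays, 3 a group, limits the precision of each value.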

Other observations

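Genes of the embryonic territories where Fgf acts were counted in the same way, in lists that overlap in part with those above, beside 6.80% of named genes called and 21.3% with the replicate block. The midbrain and hindbrain, tailbud, and ear, forebrain and heart lists had 7.41%, 9.09% and 4.55% of their genes called, and 18.5%, 27.3% and 27.3% with the block, so these counts say nothing particular about the lists. Of 27 midbrain and hindbrain genes 0 were higher and 2 lower, with a median of -0.0071 (with the replicate block 0 and 5). The called genes were en2b, at 283.5, 256.7 and 347.1 in controls and 139.3, 190.4 and 160.0 in morphants (-0.80 ± 0.16, limma adjusted p = 0.0231), and meis1b (-0.44 ± 0.09, 0.0317). Both calls were lost when any of 4 arrays was left out (adjusted p reaching 0.114 and 0.154). In the same list pax2a (-0.06 ± 0.12, adjusted p = 0.866) and en2a (-0.19 ± 0.12, 0.455) had overlapping groups. A dimmer pax2a probe set stood on the other side of 0 (0.06 ± 0.12, adjusted p = 0.837), also with overlapping groups. With the block otx1, otx2b and her5 were lower too (adjusted p = 0.0222, 0.0137 and 0.0402), at -0.37 ± 0.11, -0.37 ± 0.12 and -0.34 ± 0.17 (0.0866, 0.104 and 0.304 without it).

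Of 22 tailbud and presomitic genes 1 was higher, the Bmp inhibitor bambia (0.40 ± 0.09, limma adjusted p = 0.0381), and 1 lower, aldh1a2, which makes retinoic acid (-0.72 ± 0.15, 0.0263). With the block 1 was higher and 5 lower. The added ones were cdx4, cyp26a1, dlc and her1 (adjusted p = 0.00644, 0.0158, 0.0116 and 0.0224, against 0.0630, 0.0910, 0.210 and 0.117 without it). A dim probe set of dlc, not the brightest, was called in both fits (-0.90 ± 0.12). The calls of bambia and aldh1a2 were lost when any of 5 arrays was left out (adjusted p reaching 0.169 and 0.118). The mesoderm gene msgn1 (-0.04 ± 0.10) and tbx16 (-0.23 ± 0.14, adjusted p = 0.410) did not pass by their brightest probe sets. A dimmer tbx16 probe set (-0.53 ± 0.24) was lower with the block alone (adjusted p = 0.0202, against 0.241 without it).

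Of 22 genes of the ear, forebrain and heart fields 1 was higher and 0 lower (4 and 2 with the block). The called gene was foxi1, which marks the ear placode field. It read 169.9, 234.7 and 195.9 in controls and 493.9, 600.6 and 501.9 in morphants, 1.35 ± 0.14 higher on the log2 scale (limma adjusted p = 0.00131), and stayed called without each array in turn. With the block dlx5a, dlx2a and six3b were higher (adjusted p = 0.00478, 0.0220 and 0.0261) and sox9b and emx3 lower (0.0299 and 0.0366). Without it these 5 had adjusted p-values of 0.0824, 0.165, 0.0870, 0.166 and 0.112. The heart gene nkx2.5 was dim, between 10.3 and 20.4 on the 6 arrays (0.06 ± 0.15).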
